A study of Mus musculus with 9 samples.

Results

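The 10 classical type I interferon-stimulated genes measured in the livers of mice given an agonist CD40 antibody were Ifit1, Ifit2, Ifit3, Isg15, Usp18, Rsad2, Mx1, Mx2, Oasl1, and Oasl2. They were chosen by name as textbook targets of type I interferon, and all 10 were present among the 24326 genes with a usable value in the deposited expression table. Bulk liver came from wild-type (WT) C57BL/6 mice 48 hours after treatment, and the mice carried no transgene or deletion in the labels, which give no age or sex. There were 3 livers from mice given the CD40 agonist FGK45 (anti-CD40, mice 2, 5, and 9) and 6 from mice given PBS (control, mice 3, 4, 7, 8, 11, and 12). For its mouse experiments as a whole, the study left out anti-CD40 mice whose blood B cells did not fall after treatment, and whether this touched the 9 mice used here is not stated. Liver RNA was read from the 3′ end of transcripts (QuantSeq). The authors expressed it as FPKM, a level scaled to the length of the transcript and to the size of the library. The deposited values were already on a common scale between mice, with median ratios of 1.00374 to 1.00966. They were thus not scaled to each library's own mapped reads alone.

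Type I interferons bind a receptor of IFNAR1 and IFNAR2, whose kinases JAK1 and TYK2 activate the transcription factor complex ISGF3, which binds the interferon-stimulated response element (ISRE) in the promoters of target genes. Their products act against viruses by blocking translation, trapping nucleocapsids, altering viral RNA synthesis, or tagging proteins, and a few feed back on the pathway. IFN-γ acts through another receptor and the GAS element, and many genes answer to both kinds of interferon.

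The promoters were searched for the ISRE core GAAANNGAAA and the GAS core TTCNNNGAA on both strands, from 250 bases before to 50 bases after the RefSeq start site (GRCm38.p6, the mm10 assembly). Promoter sequence was on hand for 7 of the 10 genes, all but Usp18, Mx1, and Mx2. The ISRE core was present in 4 of the 7, against 3.44% of 32851 mouse promoters. The stretches from 200 to 51 bases before the start are shown for these 4 genes, because the motif lies there in each, and for Oasl2, the gene with the highest log2 fold change, which held no match. Each reads 5′ to 3′ on the gene's own strand, and capitals mark the ISRE core on either strand.
Ifit1, chr19:34640689-34640838, plus strand: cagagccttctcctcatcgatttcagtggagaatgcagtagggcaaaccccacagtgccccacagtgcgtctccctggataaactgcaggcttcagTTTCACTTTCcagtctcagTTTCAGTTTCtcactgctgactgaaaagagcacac
Ifit3, chr19:34583329-34583478, plus strand: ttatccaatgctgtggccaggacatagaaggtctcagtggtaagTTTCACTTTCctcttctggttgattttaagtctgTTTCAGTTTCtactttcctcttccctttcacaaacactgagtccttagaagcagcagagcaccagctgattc
Isg15, chr4:156200869-156201018, minus strand: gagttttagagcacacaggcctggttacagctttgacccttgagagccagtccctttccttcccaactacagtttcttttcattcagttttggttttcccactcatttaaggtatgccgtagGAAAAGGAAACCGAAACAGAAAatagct
Rsad2, chr12:26456503-26456652, minus strand: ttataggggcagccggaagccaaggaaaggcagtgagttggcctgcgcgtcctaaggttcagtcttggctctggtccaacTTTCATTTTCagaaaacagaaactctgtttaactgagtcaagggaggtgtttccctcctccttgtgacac
Oasl2, chr5:114896734-114896883, plus strand: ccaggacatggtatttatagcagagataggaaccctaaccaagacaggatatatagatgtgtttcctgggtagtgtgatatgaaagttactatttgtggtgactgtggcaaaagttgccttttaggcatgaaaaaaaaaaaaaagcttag
The core began 104 and 85 bases before the start in Ifit1, 156 and 122 before it in Ifit3, and 120 before it in Rsad2. Isg15 held 3 overlapping copies, which began 78, 72, and 66 bases before the start. At least 2 copies, as in Ifit1, Ifit3, and Isg15, were found in 0.225% of all promoters. Ifit2 (both promoters on hand), Oasl1, and Oasl2 held no ISRE match in the stretches searched. RefSeq puts the first start of Ifit2 at 34550550 and that of Oasl1 at 114923143, before the starts searched. Not every start site of these genes was therefore covered. The GAS core was found only in the upstream promoter of Ifit2, 241 bases before the start, against 8.30% of all promoters. A match is a description of the letters and does not show that a factor was bound.

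The FPKM worth of 1 read was similar between libraries. Read totals were not given, but the steps between low values put the inverse of that worth at 0.870 to 1.13 in each mouse, relative to the geometric mean of the 9. Because the values were already on a common scale, this is a scaling factor and does not show how many reads each library held. In 2 libraries markers of another tissue stood apart. Anti-CD40 mouse 5 held transcripts of pancreatic acinar cells (summed FPKM 1051, against 27.9 and 33.2 in the other anti-CD40 mice), and control mouse 4 had the highest sum of erythroid markers (50525 FPKM, against 7493 to 13468 in the other control mice). Over all genes tested, 3240 were called higher and 2990 lower after anti-CD40. After removal of the acute phase genes Saa1, Saa2, and Saa3 and rescaling of all mice to an equal total, the median over all genes tested became 0.35 on the log2 scale, with 5633 higher and 1647 lower.

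All 10 genes were higher in anti-CD40 livers at an adjusted p under 0.05, by limma on log2(FPKM + 0.1) with Benjamini-Hochberg adjustment over the 13807 genes whose FPKM averaged 0.1 or more. Across all genes tested, 23.5% were called higher. In 9 of the 10 genes every anti-CD40 mouse was above every control mouse, against 22.7% of all genes tested, and in Oasl1 the groups overlapped. The log2 fold changes ran from 1.02 in Oasl1 to 2.51 in Oasl2 with a median of 1.87, whereas the median of all genes tested was 0.0056. No gene was at the floor of the table (0.01 FPKM) in every mouse, and Mx1 in control mouse 12 was the only value of the 10 genes at the floor. The log2 fold change is on the log2(FPKM + 0.1) scale and understates the change of low genes. In bulk liver, a change in the number of cells that make a transcript and a change in RNA per cell cannot be told apart. Each limma p-value sets the group difference against a variance between these mice that is moderated with all genes tested. It does not cover variation between experiments. For a single gene the 2-sided exact permutation test, which counts all 84 ways to divide the mice into 3 and 6, cannot go below 0.0238.

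Without anti-CD40 mouse 5 all of the 10 genes but Oasl1 were still called higher, and without control mouse 4 all 10 were. Without control mouse 7, the highest control in most of the 10 genes, all 10 were called higher and the groups overlapped in none. With the Saa genes left out and the mice rescaled, the log2 fold changes of the 10 genes lay between 1.36 and 2.87 and all 10 were called higher, each by more than the shift in the median.

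**Figure D1:**
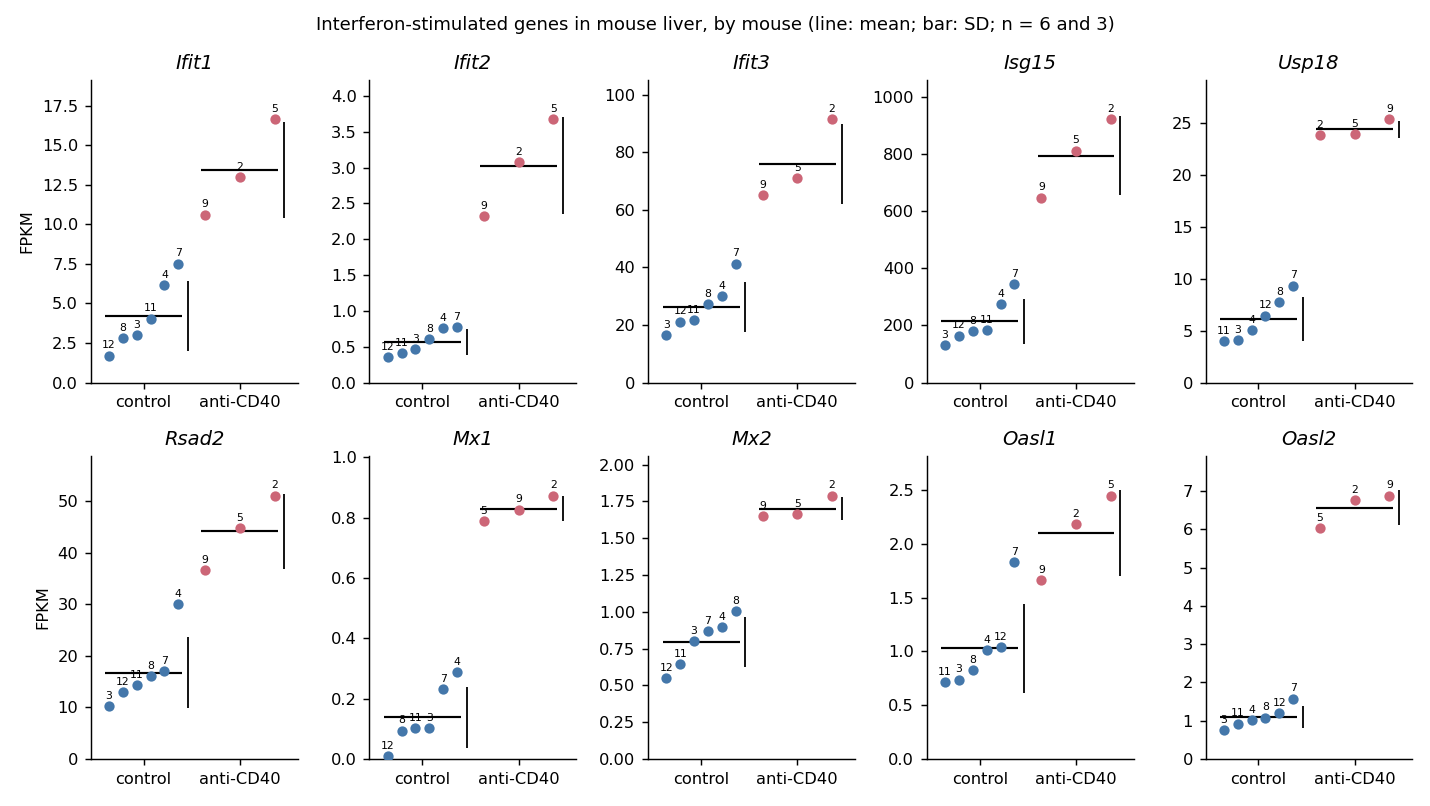
FPKM of the 10 genes in each of 9 mice, with 1 panel per gene and a linear axis from 0. Points are mice with their numbers, horizontal lines are group means, and vertical bars show the SD (n = 6 control, n = 3 anti-CD40). The groups are apart in all panels but Oasl1, where control mouse 7 (1.83 FPKM) lies above anti-CD40 mouse 9 (1.66 FPKM).

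The Ifit genes encode tetratricopeptide proteins that bind viral RNA or hold back translation. They lie near one another on chromosome 19 of mm10, Ifit2 from 34550694 to 34576534, Ifit3 from 34583529 to 34588982, and Ifit1 from 34640889 to 34650009. Ifit1 measured 13.0, 16.6, and 10.6 FPKM in anti-CD40 mice 2, 5, and 9, and from 1.71 through a median of 3.53 to 7.53 FPKM in control mice. All 3 treated mice were above the highest control, mouse 7, and control mouse 12 was lowest. The log2 fold change of Ifit1 was 1.79 (SE 0.40, adjusted p = 0.00440 by limma), from a mean of 4.21 ± 2.21 FPKM (SD, n = 6) to 13.4 ± 3.04 FPKM (SD, n = 3). Its standard error was the highest of the 10 genes. The deposited steps correspond to 700, 845, and 502 reads in the treated mice and to 75 to 380 in the control mice.

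Ifit2 measured 3.07, 3.67, and 2.32 FPKM in mice 2, 5, and 9, against 0.355 to 0.772 FPKM in control mice with a median of 0.536. The lowest treated mouse was 3.01-fold above the highest control, which again was mouse 7. The mean rose from 0.562 ± 0.181 FPKM (SD, n = 6) to 3.02 ± 0.677 FPKM (SD, n = 3), a log2 fold change of 2.26 (SE 0.25, adjusted p = 5.20e-05 by limma). Those levels rest on 255, 287, and 169 reads in the treated mice and on 24 to 60 in the control mice. Ifit3 was the most abundant of the 3 by FPKM, at 91.5, 71.1, and 65.1 FPKM in mice 2, 5, and 9, and at 16.4 to 41.4 FPKM in control mice with a median of 24.4. Control mouse 7 was highest and mouse 3 lowest, and neither reached the treated mice. Ifit3 had a log2 fold change of 1.57 (SE 0.26, adjusted p = 6.12e-04 by limma). Ifit3 has a close paralog, Ifit3b, with which reads could be shared. Ifit3b itself was higher as well, with a log2 fold change of 1.09 (adjusted p = 0.0111 by limma).

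ISG15 is a ubiquitin-like protein that is joined to newly made proteins, and USP18 is the protease that removes it and also holds back signaling at IFNAR2. Isg15 (chromosome 4, 156199424 to 156200818, minus strand) measured 921, 812, and 647 FPKM in mice 2, 5, and 9, against 132 to 345 FPKM in control mice with a median of 183. It had the highest FPKM of the 10 genes in every mouse. The lowest treated mouse was 1.88-fold above control mouse 7, and the mean rose from 214 ± 80.0 FPKM (SD, n = 6) to 793 ± 138 FPKM (SD, n = 3), a log2 fold change of 1.95 (SE 0.28, adjusted p = 2.57e-04 by limma). Usp18 (chromosome 6, 121245906 to 121270917) measured 23.8, 23.9, and 25.3 FPKM in mice 2, 5, and 9, and 4.02 to 9.33 FPKM in control mice with a median of 5.75. The treated mice were close together, with a coefficient of variation of 3.47%, whereas it was 34.9% among control mice. Usp18 had a log2 fold change of 2.05 (SE 0.26, adjusted p = 1.19e-04 by limma) and was read 827, 780, and 770 times in the treated mice and 119 to 303 times in the control mice. The antisense gene Gm44148 overlaps Usp18, and whether the counting used strand is not given in the sources used here.

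The enzymes that attach ISG15 were 4 in number, of which 3 were called higher and 0 lower, with a median log2 fold change of 0.99. Uba7, the activating enzyme, rose from 2.83 ± 0.773 FPKM (SD, n = 6) to 8.04 ± 0.724 FPKM (SD, n = 3), a log2 fold change of 1.51 (adjusted p = 2.65e-04 by limma). Herc6, the main ligase in mice, rose by a log2 fold change of 1.85 (adjusted p = 5.11e-05 by limma), and Trim25, a ligase that also acts on RIG-I, had 0.43 (adjusted p = 0.0380 by limma). The call of Trim25 was lost without any 1 of the anti-CD40 mice 2, 5, and 9 (adjusted p = 0.118, 0.0878, and 0.0907 by limma), without control mouse 3, 7, or 8, with no filter (adjusted p = 0.0696 by limma), and without the variance trend (adjusted p = 0.0502 by limma). Ube2l6, the conjugating enzyme, was at 22.2 ± 1.96 FPKM (SD, n = 3) against 16.3 ± 3.79 FPKM (SD, n = 6), and its log2 fold change of 0.47 did not pass (adjusted p = 0.0503 by limma). Among other alternatives, Ube2l6 was called higher with quantile normalization (adjusted p = 0.0198 by limma) and with array weights (adjusted p = 0.00579 by limma). Its call was also gained without control mouse 4 (adjusted p = 0.00234 by limma).

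Rsad2 encodes viperin, an enzyme that makes a chain-terminating nucleotide. It lies on chromosome 12 from 26442743 to 26456452 on the minus strand and measured 51.0, 44.8, and 36.6 FPKM in mice 2, 5, and 9. Control mice ran from 10.2 to 30.05 FPKM with a median of 15.2, and the highest, mouse 4, was apart from the next control at 17.0 FPKM. The lowest treated mouse was 1.22-fold above mouse 4, the narrowest gap among the 9 genes without overlap. Rsad2 rose from 16.7 ± 6.94 FPKM (SD, n = 6) to 44.1 ± 7.23 FPKM (SD, n = 3), a log2 fold change of 1.46 (SE 0.28, adjusted p = 0.00171 by limma).

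Mx1 and Mx2 belong to a family of dynamin-like GTPases, of which functional members block viral nucleocapsids. They lie close together on chromosome 16, Mx1 from 97447035 to 97462906 on the minus strand and Mx2 from 97536081 to 97560901. RefSeq lists both as transcribed pseudogenes, whereas GENCODE lists Mx1 as protein coding and Mx2 as a polymorphic pseudogene. RNA of either gene is therefore not evidence of a working protein in these mice. Mx1 had the lowest FPKM of the 10 genes in both groups, at 0.873, 0.789, and 0.826 FPKM in mice 2, 5, and 9. In control mice it lay between the floor of 0.01 (mouse 12) and 0.287 FPKM (mouse 4), with a median of 0.103. The treated mice differed little, with a coefficient of variation of 5.08%, and the lowest was 2.75-fold above mouse 4. The log2 fold change of Mx1 was 2.08 (SE 0.36, adjusted p = 8.53e-04 by limma). Its control level is close to the pseudocount, and setting that to 1 or 0.01 gave 0.69 or 2.91. Mx2 measured 1.79, 1.67, and 1.65 FPKM in mice 2, 5, and 9, and 0.550 to 1.005 FPKM in control mice with a median of 0.836. The highest control was mouse 8, and no control reached the treated mice. Mx2 had a log2 fold change of 1.03 (SE 0.19, adjusted p = 0.00119 by limma), from 22 to 41 reads per control mouse to 88, 77, and 71 reads in mice 2, 5, and 9.

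The Oasl genes encode proteins related to the oligoadenylate synthetases and carry ubiquitin-like domains. OASL1 is known to hold back translation of Irf7. They are neighbors on chromosome 5, Oasl2 from 114896934 to 114912245 and Oasl1 from 114923240 to 114937911. Oasl2 measured 6.77, 6.03, and 6.88 FPKM in mice 2, 5, and 9, against 0.750 to 1.58 FPKM in control mice with a median of 1.05. The lowest treated mouse was 3.82-fold above the highest control, the widest gap of the 10 genes. Oasl2 had the highest log2 fold change, 2.51 (SE 0.20, adjusted p = 5.82e-06 by limma), and was read 440, 369, and 392 times in the treated mice and 42 to 96 times in the control mice.

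Oasl1 measured 2.19, 2.45, and 1.66 FPKM in mice 2, 5, and 9, and 0.717 to 1.83 FPKM in control mice with a median of 0.917. Control mouse 7 was above anti-CD40 mouse 9, and the next control, mouse 12, was at 1.04 FPKM. The log2 fold change of 1.02 (SE 0.27, adjusted p = 0.0108 by limma) was the lowest of the 10, with an exact permutation p of 0.0476 against 0.0238 for each of the other 9. Without anti-CD40 mouse 5 the log2 fold change of Oasl1 was 0.90 and the call was lost (adjusted p = 0.0521 by limma), whereas without control mouse 7 it was 1.18 (adjusted p = 9.60e-04 by limma). An antisense gene, Gm13822, overlaps Oasl1.

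**Figure D2:**
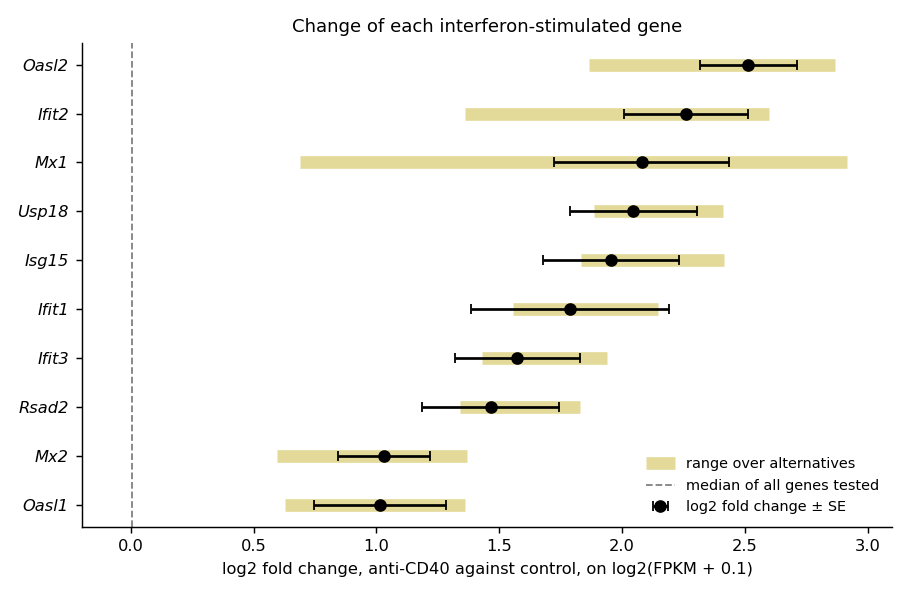
Log2 fold change of each gene, anti-CD40 against control, on log2(FPKM + 0.1). Points with bars are the estimate ± SE (n = 3 and 6), pale bars span the values under the alternative settings, and the dashed line marks the median of all genes tested (0.0056). Every pale bar lies above 0, and the bar of Mx1 is the widest, from 0.69 to 2.91.

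Related genes changed by different amounts in 3 of 6 pairs compared, by the exact permutation test on the difference in log2(FPKM + 0.1) within each mouse. The change in Oasl2 exceeded that in Oasl1 by 1.498 on the log2 scale. In control mice Oasl1 minus Oasl2 was -0.11 ± 0.21 (SD, n = 6) and in anti-CD40 mice -1.61 ± 0.36 (SD, n = 3), and the groups did not overlap (exact permutation p = 0.0238, adjusted p = 0.0476). Mx1 exceeded Mx2 by 1.05 (exact permutation p = 0.0238, adjusted p = 0.0476). That difference moved with the pseudocount, to 0.094 at 1 (adjusted exact permutation p = 0.286) and 1.797 at 0.01, and with quantile normalization it was 0.98 (adjusted exact permutation p = 0.0714). Ifit2 exceeded Ifit3 by 0.69 (exact permutation p = 0.0238, adjusted p = 0.0476), and with a pseudocount of 1 the difference was -0.18 and with quantile normalization 0.11 (adjusted exact permutation p = 0.857 and 0.786). Oasl1 minus Oasl2 was -1.24 with a pseudocount of 1 and -1.63 with quantile normalization, where the adjusted exact permutation p was 0.143 and 0.0714. The unadjusted p of Oasl1 minus Oasl2 stayed at the smallest possible, 0.0238, in both, and the adjusted p rose because fewer of the other pairs were at that value. With a filter at 1 FPKM, where Mx1 was not tested, the pairs of Ifit2 and Ifit3 and of Oasl1 and Oasl2 both had an adjusted exact permutation p of 0.0595. Ifit1 minus Ifit2 passed with a pseudocount of 0.01, at -0.63 (adjusted exact permutation p = 0.0357). In the values as reported, Ifit1 minus Ifit2 (-0.47, adjusted p = 0.357), Ifit1 minus Ifit3 (0.21, adjusted p = 0.771), and Isg15 minus Usp18 (-0.091, adjusted p = 0.833) did not pass the exact permutation test, which does not show that these genes changed alike.

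By FPKM, a level per length that in 3′ data also depends on the length assigned to the transcript, the order in control mice was Isg15, Ifit3, Rsad2, Usp18, Ifit1, Oasl2, Oasl1, Mx2, Ifit2, and Mx1. Isg15 was 8.13-fold above Ifit3 in the control means and 10.5-fold above it in the anti-CD40 means, with no overlap in either group. The ranges of neighboring genes overlapped among control mice for Ifit3 and Rsad2, Usp18 and Ifit1, Oasl2 and Oasl1, Oasl1 and Mx2, and Mx2 and Ifit2. After anti-CD40 the first 6 genes kept their order, and Ifit2 was above Oasl1 and Mx2, where it had been below both in control mice. Only the ranges of Ifit2 and Oasl1 and of Oasl1 and Mx2 overlapped among the anti-CD40 mice.

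The control mice differed among themselves in most of the 10 genes together. Control mouse 7 had the highest control value in 7 of 10 genes, mouse 4 in 2, and mouse 8 in 1, whereas mouse 7 was the highest control in 12.2% of all genes tested. The median of the 10 genes relative to their control means was 0.63 on the log2 scale in mouse 7 and 0.34 in mouse 4, and the lowest medians were -0.41 in mouse 3 and -0.29 in mouse 12. Among anti-CD40 mice the medians were 1.94, 2.01, and 1.58 in mice 2, 5, and 9, and mouse 9 had the lowest treated value in 7 of 10 genes against 32.5% of all genes tested. In Usp18 and Oasl2 mouse 9 was the highest treated mouse.

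**Figure D3:**
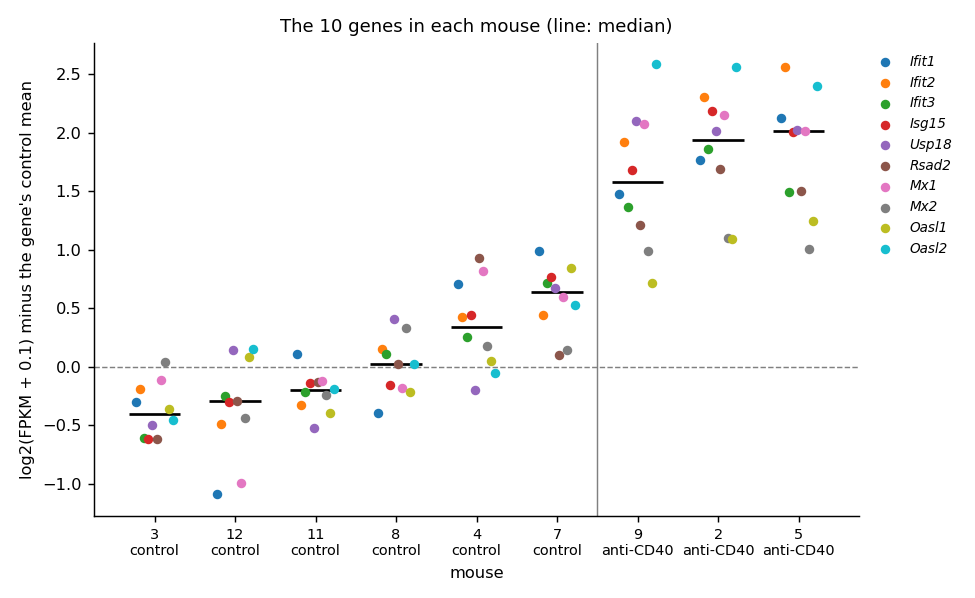
Each gene's log2(FPKM + 0.1) minus its control mean, with mice along the horizontal axis ordered by median within each group. Points are genes and black lines are medians over the 10 genes. The control medians run from -0.41 (mouse 3) to 0.63 (mouse 7) and the anti-CD40 medians from 1.58 (mouse 9) to 2.01 (mouse 5).

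Upstream of these genes, 20 type I and type III interferon ligand genes were in the table. Of these, 18, which included every Ifna gene listed, were at the floor in every mouse, and 1 passed the filter on low values. Across the whole table, 6925 of the 24326 genes with a usable value were at the floor in every mouse. Ifnk, a keratinocyte type I interferon, was read 4, 7, and 0 times in the treated mice 2, 5, and 9 and 1 time in control mouse 8. Its log2 fold change of 1.33 (adjusted p = 0.0458 by limma) had overlapping groups (exact permutation p = 0.167). The call was lost with quantile normalization (adjusted p = 0.0756 by limma) and without control mouse 3 (adjusted p = 0.0750 by limma), among other alternatives. Ifnb1, the interferon made by most cell types, was above the floor only in anti-CD40 mouse 5, at 0.170 FPKM. With a value in 1 mouse, the smallest whole number that fits is always 1 read. These reads are the smallest whole numbers that match the deposited values, and a transcript level below the worth of 1 read was not detectable. Reads that match several Ifna genes could have been lost in counting, and this was not tested. The erythroid marker Hba-a1 was also at the floor in every mouse. Hba-a2 measured 747 to 2537 FPKM after anti-CD40 and 1271 to 9533 FPKM in control mice.

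The receptor chains and their kinases were 9 genes, of which 7 were called higher and 0 lower, with a median log2 fold change of 0.85. For the type I receptor, Ifnar2 was called higher and Ifnar1 was not, and whether they changed by different amounts was not tested. Ifnar2 rose from 66.9 ± 7.91 FPKM (SD, n = 6) to 151 ± 9.46 FPKM (SD, n = 3), a log2 fold change of 1.18 (adjusted p = 3.04e-05 by limma). Ifnar1 was at 1.87 ± 0.307 FPKM (SD, n = 6) and 2.42 ± 0.360 FPKM (SD, n = 3), and its log2 fold change of 0.36 did not pass (adjusted p = 0.102 by limma). Ifnar1 was called higher with array weights (adjusted p = 0.0418 by limma) and after the Saa genes were removed (0.71, adjusted p = 0.00310 by limma). Of the kinases, Jak1 was called higher at 0.45 (adjusted p = 0.00645 by limma) and Jak2 0.85 (adjusted p = 0.00152 by limma), and Tyk2 at 0.27 did not pass (adjusted p = 0.2999 by limma). Tyk2 was called higher after the Saa genes were removed (0.63, adjusted p = 0.0136 by limma). Ifnlr1, the chain specific to type III interferon, rose from 0.0626 ± 0.0363 FPKM (SD, n = 6) to 0.543 ± 0.0319 FPKM (SD, n = 3), with a log2 fold change of 2.01, and its partner Il10rb had 1.04. The IFN-γ receptor chains Ifngr1 and Ifngr2 had log2 fold changes of 0.84 and 1.43, and both were called higher.

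The 3 transcription factor genes reported, Irf7, which amplifies interferon transcription, and Stat2 and Irf9, which encode subunits of ISGF3, were called higher, with a median log2 fold change of 0.65. Irf7 measured 40.9 to 63.2 FPKM after anti-CD40 and 7.09 to 18.3 FPKM in control mice, and its log2 fold change was 2.12 (SE 0.26, adjusted p = 8.90e-05 by limma). Irf9 and Stat2 had smaller log2 fold changes of 0.45 (adjusted p = 0.0481 by limma) and 0.65 (adjusted p = 0.0301 by limma). The calls of both were lost without any 1 of the 3 anti-CD40 mice, which left 1 of the 3 genes called, and that of Irf9 also without control mouse 3, 4, or 11.

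Other interferon-stimulated genes, drawn from general knowledge, numbered 52 in the table, and 51 were tested. Of these, 42 were called higher and 1 lower, with a median log2 fold change of 1.24, below the median of 1.87 for the 10 genes. The highest were Ifi44 (log2 fold change 2.75), Phf11b (2.72), and Phf11a (2.44). At the other end, Parp10 (0.13, adjusted p = 0.700 by limma) and Nmi (0.049, adjusted p = 0.813 by limma) did not pass. Gm4951, a gene of the GTPase family, was called lower, from 54.7 ± 8.23 FPKM (SD, n = 6) to 34.4 ± 1.24 FPKM (SD, n = 3), a log2 fold change of -0.65 (adjusted p = 0.00286 by limma). After the Saa genes were removed, Gm4951 was at -0.29 and the call was lost (adjusted p = 0.0890 by limma). Control mouse 7 was the highest control in 23 of these 51 genes and anti-CD40 mouse 9 the lowest treated mouse in 35. Among the 41 tested genes with promoter sequence, 18 of the 20 with the ISRE core were called higher and 16 of the 21 without it, with median log2 fold changes of 1.40 and 0.88. The 9 of them with at least 2 copies had 7 called higher and a median of 1.09. Among the 10 genes the order was the other way, with a median of 1.68 in the 4 with the core and 2.26 in the 3 without a match in the stretches searched. In the IFN-γ list 9 of 10 genes with the core and 11 of 12 without it were called higher. Over all 10425 tested genes with promoter sequence, 33.9% of the 404 with the core and 22.8% of those without it were called higher, and 20 of the 34 genes with at least 2 copies were. These totals include the listed genes. Those with at least 2 copies were 3 of the 10 genes, 9 other interferon-stimulated genes, and 3 IFN-γ genes, of which 3, 7, and 3 were called higher.

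Genes associated with IFN-γ, many of which also answer to type I interferon, were 33 in the table and 31 tested. Of these, 28 were called higher and 0 lower, with a median log2 fold change of 2.19. The chemokine gene Cxcl9, a target of IFN-γ, was highest, from 9.56 ± 3.83 FPKM (SD, n = 6) to 409 ± 48.1 FPKM (SD, n = 3), a log2 fold change of 5.47 (SE 0.26, adjusted p = 3.25e-07 by limma). Cd274, which encodes PD-L1, and Cxcl10, which answers to both kinds of interferon, followed at 3.28 and 3.26. The GTPase genes Irgm2 (0.58, adjusted p = 0.111 by limma) and Iigp1 (-0.25, adjusted p = 0.114 by limma) and the factor gene Irf1 (0.33, adjusted p = 0.179 by limma) did not pass. Irgm2 and Irf1 were called higher with quantile normalization (adjusted p = 0.0410 and 0.0318 by limma). The same held after the Saa genes were removed (adjusted p = 0.0228 and 0.0107 by limma), and for Irf1 with array weights (adjusted p = 0.0475 by limma). In this list control mouse 4 was the highest control in 15 of the 31 genes, against 27.4% of all genes tested, and mouse 7 in 9.

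Negative regulators of interferon signaling were 11 genes, of which 5 were called higher and 0 lower, with a median log2 fold change of 0.32. Those called were the feedback inhibitors Socs1 (2.69) and Socs3 (2.50), the phosphatase gene Ptpn6 (1.56), and 2 further phosphatase genes named after their values were seen, Ptpn1 (1.27) and Ptpn2 (0.58). Pias2 (-0.32), Pias4 (0.037), and Ptpn11 (0.12) had the lowest log2 fold changes and did not pass. Pias2 was called lower with quantile normalization (adjusted p = 0.0230 by limma) and with array weights (adjusted p = 0.0312 by limma). Ptpn11 was called higher after the Saa genes were removed (adjusted p = 0.0221 by limma). Usp18, which acts at the receptor, was among the 10 genes and had 2.05. These lists share Socs1 with the IFN-γ list.

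**Figure D4:**
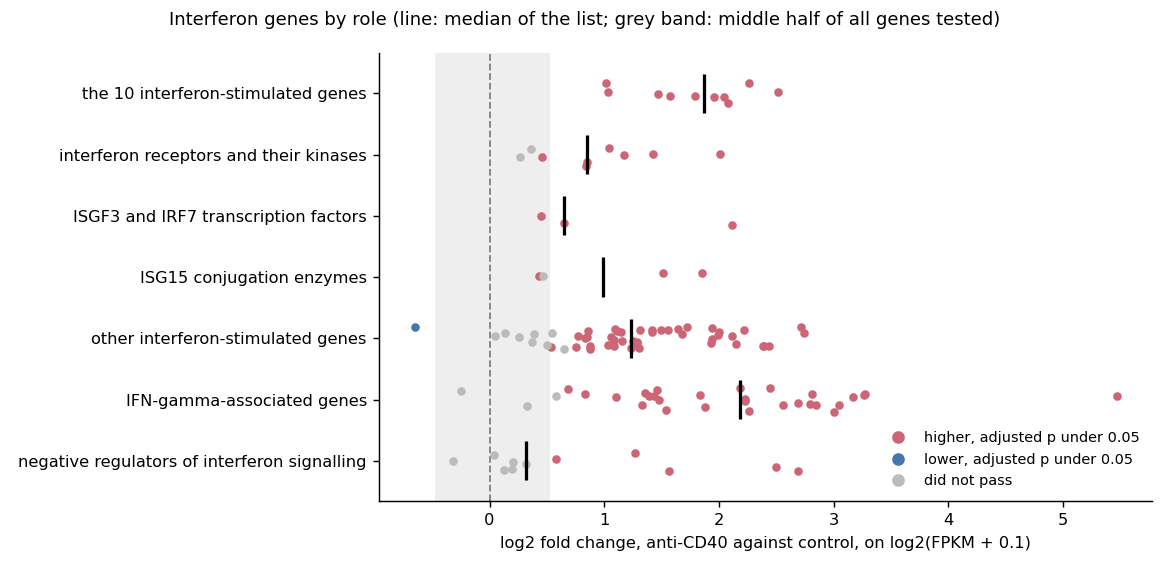
Log2 fold changes of the 10 genes and of the tested genes in 6 lists grouped by role, on log2(FPKM + 0.1). Points are genes, coloured by call, black lines are medians, and the grey band spans the 25th to 75th percentile of all genes tested (-0.47 to 0.53) with their median dashed. The median is 1.87 for the 10 genes, 2.19 for the IFN-γ list, and 0.32 for the negative regulators.

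By a root mean square difference in log2 values over the 9 mice, the genes outside the 10 whose profile lay closest to their median, among 10146 genes averaging 1 FPKM or more, were Tpm4 (0.165), Rftn1 (0.175), Herc6 (0.175), Phf11d (0.182), and Anxa3 (0.192). Herc6 and Phf11d are interferon-stimulated. Tpm4 encodes a tropomyosin and Anxa3 an annexin. The closest to Oasl2 were Tmem173 (0.142), which encodes the DNA-sensing adaptor STING, Pdk3 (0.168), and Sh3bgrl3 (0.179), and the closest to Oasl1 were Gmds (0.0959), Tpm1 (0.193), and Xpo1 (0.220). Depth and tissue makeup are shared by all genes of a mouse, so a close profile is a description.

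Markers of several cell types moved with treatment. The summed FPKM of 8 hepatocyte markers was 6635 to 7679 after anti-CD40 and 15272 to 27748 in control mice, with 6 of the 8 called lower. Apob was called higher, with a log2 fold change of 0.74 and no overlap (adjusted p = 0.0132 by limma), and Tat did not pass. The Kupffer cell list fell in all 5 genes, from sums of 268 to 425 FPKM to 37.2 to 48.1 FPKM, and Clec4f was at or near the floor in the treated mice (0.01 to 0.218 FPKM). The sum of 7 monocyte and macrophage markers was 81.0 to 108 FPKM after anti-CD40 and 13.2 to 23.6 FPKM in control mice, with 4 genes called higher and Adgre1 lower. Of the neutrophil markers, 5 of 5 tested were called higher, and the list summed to 4198 to 5180 FPKM against 18.1 to 152 FPKM. Most of that sum after anti-CD40 was S100a8 and S100a9, which averaged 3316 and 1437 FPKM. Mpo and Elane averaged 0.139 and 0.0916 FPKM after anti-CD40 and were not tested, and Ly6g had no value. All 5 natural killer cell markers tested were called higher (sums of 79.8 to 101 FPKM against 7.65 to 23.4 FPKM). Gzma, at a mean of 72.3 FPKM after anti-CD40, made up most of that sum, and Prf1 was not tested. All 5 B cell markers tested (26.0 to 36.8 FPKM against 1.605 to 6.85 FPKM) and 5 of 6 T cell markers (8.39 to 10.6 FPKM against 2.54 to 4.34 FPKM) were also called higher. Plasmacytoid dendritic cells, a main source of type I interferon, had 5 of 7 tested markers called higher, with sums of 128 to 136 FPKM against 56.2 to 126 FPKM. That list holds Bst2 and Irf8, which other lists hold as well. Bst2 averaged 91.9 FPKM after anti-CD40 and 68.1 FPKM in control mice, and did not pass (adjusted p = 0.141 by limma). Klk1, which was called, was read 165 times in mouse 5, the library with acinar transcripts, and 21 and 18 times in mice 2 and 9. The groups overlapped in Runx2, and in the defining marker Siglech, at 0.587 to 0.831 FPKM after anti-CD40 and 0.287 to 0.685 FPKM in control mice. Irf8 and Tcf4 were called higher without overlap, with log2 fold changes of 2.23 and 0.52 (adjusted p = 5.45e-06 and 0.00656 by limma), and Ccr9 did not pass. The markers of this list were thus divided, and a rise of these cells is not shown. The part of these cell types in the change of the 10 genes was not tested.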

How the data were processed

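The authors isolated RNA from 9 mouse livers, made QuantSeq 3′ libraries, sequenced them on a NextSeq instrument, aligned the reads to mm10 with STAR, and ran Cufflinks and Cuffdiff (names as in the submitters' processing notes, with versions not given there). They deposited FPKM, already on a common scale (median ratios between mice 1.00374 to 1.00966), for 24341 genes, and 15 genes with a failed estimate were left out here. The annotation, any filter on the table, and the use of strand are not given in the sources used here.

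Mice were grouped by the treatment label. For genes averaging 0.1 FPKM or more, log2(FPKM + 0.1) was modeled on treatment alone with limma 3.58.1 (R 4.3.3), using an intensity trend in eBayes, 2-sided tests, and Benjamini-Hochberg adjustment at 0.05, and single genes and pairs with the exact permutation test. Because the files hold FPKM and not counts, no count model was fitted. Whole reads were recovered from the steps of low values, relative to a depth set per mouse, for 8 of the 10 genes (not Isg15 or Mx1), with every mouse within 0.1 of a whole number. For the abundant genes these reads are less certain. The limma fit and the recovery of whole reads were checked on simulated data, and the exact permutation test was not. Python 3.11.15, numpy 2.4.6, pandas 2.3.3, and matplotlib 3.10.9 did the rest.

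The 10 genes, the pathway lists, and the marker lists were chosen with earlier results of these data known, from general knowledge. A gene of the transcription factor list is not reported here, and the counts leave it out. Named besides the 10 genes were every member of lists of up to 10 genes, the 3 highest and 3 lowest log2 fold changes of longer lists, and the genes of closest profile, while Ifit3b was named as a paralog of Ifit3. Positions came from the deposited table, with starts counted from 1, and promoters from RefSeq on GRCm38.p6. The alternatives were a pseudocount of 1 or 0.01, dropping the filter or raising it to 1 FPKM, scaling by quantiles or by median ratios, rescaling without the Saa genes, eBayes without the trend or robust, array weights, an adjusted p under 0.01, a fold change of at least 2, and leaving out each mouse. No columns of other samples were used.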

Additional observations from a re-analysis of the deposited data

Results flagged for a closer look

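Among 45 results with values in 6 control mice, 2 had a highest or lowest mouse far from the others by Dixon's test on log2(FPKM + 0.1), where chance gives about 2.25. The gap of Stat2 in control mouse 3, the lowest at 1.12 FPKM against 1.93 to 2.24 FPKM in the other control mice, was 0.779 of the control range on that scale and 0.720 on the FPKM scale. For Ifnk, control mouse 8 was the highest at 0.0956 FPKM, which is 1 read, with the other control mice at the floor of 0.01, so that the gap was 1 as a share of the range. No cause was tested for either value. None of the 10 interferon-stimulated genes was among them on the log2 scale. On the FPKM scale the gap of the highest control was 0.710 of the range for Oasl1 (mouse 7) and 0.660 for Rsad2 (mouse 4), both past the limit of the test.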

How the results depend on the processing

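All 10 genes kept a positive log2 fold change under every alternative that tested them. The number called higher was 10, or 9 with a mean FPKM of at least 1 (Mx1 was not tested), with an adjusted p under 0.01 (Oasl1 lost), and from 9 to 10 with each mouse left out. The number without overlap ran from 8 with a mean FPKM of at least 1, where 9 were tested, to 10 with the Saa genes left out. Among the lists, the ligands had 0 called in place of 1 with a pseudocount of 0.01, no filter, a filter at 1 FPKM, quantile normalization, array weights, and an adjusted p under 0.01, and 0 to 1 with each mouse left out. Of Irf7, Stat2, and Irf9, 1 was called in place of 3 with no filter, an adjusted p under 0.01, and a fold change of at least 2, and 1 to 3 with each mouse left out. The receptors and kinases had 4 called in place of 7 with a fold change of at least 2. The negative regulators had 8 in place of 5 with the Saa genes left out, where the median of all genes was also shifted.

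Several values reversed, among them Ifit2 minus Ifit3, which had passed the test. With a pseudocount of 1, Ifit1 minus Ifit2 was 0.20, Ifit2 minus Ifit3 -0.18, and Isg15 minus Usp18 0.064. With quantile normalization, Ifit1 minus Ifit3 was -0.095, Isg15 minus Usp18 0.27, Parp10 -0.064, Iigp1 0.16, and Pias4 -0.35. With the Saa genes left out, Iigp1 was 0.12 and Pias2 0.043, and with array weights Pias4 was -0.049. With each mouse left out in turn, Nmi ran from -0.027 to 0.13, Parp10 from -0.14 to 0.39, Pias4 from -0.17 to 0.25, and Isg15 minus Usp18 from -0.22 to 0.076. The cause of these changes was not tested. The 3 pairs that passed lost their calls with any mouse left out. Without an anti-CD40 mouse the smallest exact permutation p is 0.0714, which cannot pass, and without a control mouse it is 0.0357, where the adjusted p of these pairs was 0.0714. Absolute depth is unknown, and values near the floor, as those of Mx1 in control mice and of the ligands, are limited by counting. No paired analysis was possible because the groups share no mouse number.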
